A study of Mus musculus with 35 samples.

Results

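The comparison described here sets diabetic retina whose microglia had been depleted against non-diabetic retina, and covers all 25655 genes of the authors' deposited table for that pair of groups, which is as many as the series holds. All mice were wild type, which the series text specifies as wild type at Cx3cr1. The depleted diabetic group (4 samples) had 8 weeks of diabetes, with microglia depletion over the last 2 weeks, and the non-diabetic group (ND, 6 samples) had neither diabetes nor depletion. Diabetic retina of 8 weeks without depletion (D8, 5 samples, whose labels add PBS) and non-diabetic retina after 2 weeks of depletion and 2 weeks of recovery (repopulated ND, 5 samples) are set beside it. The labels call the depleting treatment DTx and the series text names PLX-5622 in chow, so only the word depletion is used. The sources used here give no strain, no age and no method of inducing diabetes, and whether each library came from an animal of its own is not stated. The samples of ND and of the depleted group carry numbers between 3006 and 3029 and those of D8 between 2974 and 2978, so every comparison with D8 also crosses 2 runs of numbers.

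Microglia are the resident macrophages of the retina. They depend on signals through the colony-stimulating factor 1 receptor, keep contact with neurons through the fractalkine receptor, and release chemokines, complement and cytokines when they are activated. In diabetic retina they are known as one source of inflammatory signals, beside Muller glia, astrocytes and the vessel wall, which answer to interferons, interleukin-6 and tumour necrosis factor with programmes of their own. The question the comparison addresses is which of the diabetic changes are also found when microglia are largely gone. The series holds no non-diabetic retina examined while depleted. Effects of diabetes and of depletion therefore cannot be told apart in depleted D8 against ND.

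Each deposited table gives, for a gene, a log2 fold change, a p-value, an FDR p-value and a level, which is the mean of whichever group was higher, without naming its unit. Values per sample were not used here, so depth and spread within a group are unknown, and the precision is given as the standard error or 95% interval that the deposited p implies. A gene was called when its deposited FDR p was under 0.05, and p-values measure only the spread between these samples, which may be technical. The same ND samples enter depleted D8 against ND, D8 against ND and repopulated ND against ND, so values from these 3 are set side by side and no agreement between them is read as a result. The direct comparison, depleted D8 against D8, is the test of whether a diabetic change differed with microglia depleted. It cannot tell an altered effect of diabetes from an effect that depletion would have without diabetes.

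Of 18102 genes with a deposited FDR p in depleted D8 against ND, 2800 were higher (15.5%) and 2352 lower (13%) in depleted diabetic retina. In D8 against ND 407 of 17495 tested genes were higher (2.33%) and 102 lower (0.583%). The direct comparison of depleted D8 with D8 called 994 of 16982 genes higher (5.85%) and 832 lower (4.90%). Repopulated ND against ND gave 13 higher (0.0844%) and 11 lower genes (0.0714%) of 15402. Counts of list members below are to be read against these shares. As few genes were called in D8 against ND, a list without calls there is not shown to be unchanged. The median size of a called change in depleted D8 against ND was 0.591 on the log2 scale, and 1374 of the 5152 called genes changed by at least 1, 1037 of them upward and 337 downward. The median log2 fold change over all genes tested was 0.02. Rod transcripts such as Gnat1, the transducin subunit of rods (ND mean 3630 in the authors' deposited table), were among the highest values, as the tissue label says. The volcano plot shows that inflammatory genes led the rises and that lens crystallins and microglia genes led the falls.

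**Figure D1:**
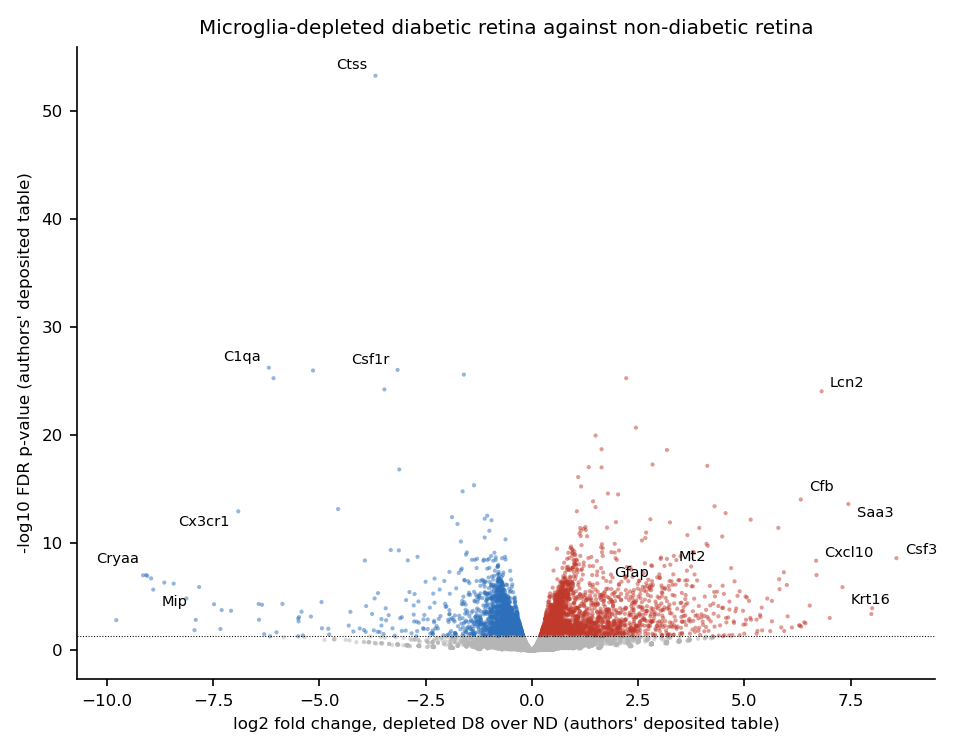
Each point is 1 of 18102 genes, with the deposited log2 fold change of depleted D8 over ND on the x axis and minus log10 of the deposited FDR p on the y axis. Red points are higher and blue points lower at FDR under 0.05 (dotted line), and Ctss stands above all others on the left while Lcn2 combines a large rise with a small p on the right.

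Genes of other eye tissues moved with the groups, and their part in the results was not tested. All 18 called members of the lens list (of 23 tested) were lower in depleted D8 than in ND, with a median log2 of -7.08. The lens list also had 14 of 23 members lower in D8 against ND and 13 of 20 lower in depleted D8 against D8. Without diabetes it moved as well, with 3 of 23 higher and none lower in repopulated ND against ND (median 1.45), where 0.0844% of all genes were higher. In the authors' deposited table Cryaa, the major lens chaperone, had an ND mean of 1480 and a log2 of -9.15 (implied SE 1.51). Other large falls were Foxe3 (-9.78), Cryba1 (-9.08), Crygs (-9.05), Cryba2 (-8.96), Mip (-8.91), Crybb2 (-8.65), Cryba4 (-8.43), Crybb1 (-7.83), Gja3 (-7.48) and Lctl (-7.30) in the authors' deposited table, all known from the lens. Keratins and surface epithelium genes went the other way, with 10 of 16 higher (median 2.80) in depleted D8 against ND, 0 of 16 called in D8 against ND (median 1.09) and 9 of 16 higher in the direct comparison. Krt12, the keratin of the corneal epithelium and a gene picked after its value was seen, had a depleted mean of 12.9 and a log2 of 3.53 in the authors' deposited table. Pigment epithelium genes were higher for 4 of 16 (median 0.55), among them Ttr, a retinol carrier, with means of 23 in ND and 63.5 in depleted D8 in the authors' deposited table. Blood cell genes gave no call in 10 tested (median -1.06), while 4 of 9 were lower in D8 and 5 of 8 higher in the direct comparison.

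Most homeostatic microglia genes fell. Of the 30 homeostatic microglia genes tested, 22 were lower in depleted D8 than in ND, 1 was higher and 7 did not pass, with a median log2 of -3.24, against 13% of all genes lower. In D8 against ND the same list had 5 members higher, none lower and a median of -0.03, and in the direct comparison 22 were lower (median -3.20). Since this is bulk tissue, fewer microglia and less RNA per microglial cell cannot be told apart.

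Cx3cr1, the fractalkine receptor, had a mean of 0.713 in ND and 0.761 in D8 and a log2 of -6.91 (implied SE 0.84, FDR p 1.26e-13) in depleted D8 against ND in the authors' deposited tables. Csf1r, on which microglia depend for survival, fell by 3.16 from an ND mean of 1.31 (FDR p 9.53e-27). Tmem119, a marker of resident microglia, fell by 3.32, and P2ry12, the purinergic receptor of their processes, by 2.32 in the authors' deposited table. The lysosomal protease Ctss had the smallest FDR p of the list, 4.83e-54, at a log2 of -3.68 from an ND mean of 6.16 in the authors' deposited table. Complement C1q, which microglia make in the central nervous system, fell as a whole, with C1qa at -6.19, C1qb at -6.08 and C1qc at -5.15 in the authors' deposited table. All of the microglia genes named in this paragraph were also lower in the direct comparison.

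Not every member went down. Irf8, a transcription factor of microglia that interferon also induces, was higher at 1.26 (FDR p 0.000269), and the direct comparison gave 0.46 with a 95% interval of -0.24 to 1.16 in the authors' deposited tables. Cd68, Itgam, Tgfbr1, Fcer1g, Spi1, Olfml3 and Slc2a5 did not pass in depleted D8 against ND, with FDR p of 0.0553, 0.0667 and 0.0794 for the last 3. Fcer1g and Spi1, an adaptor of Fc receptors and a master factor of myeloid cells, were higher in D8 against ND at 1.15 and 1.61, and the direct comparison was called lower at -1.61 and -2.78 in the authors' deposited tables. The plot of single microglia genes shows the spread from Cx3cr1 to Irf8 beside the D8 values of the same genes.

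**Figure D2:**
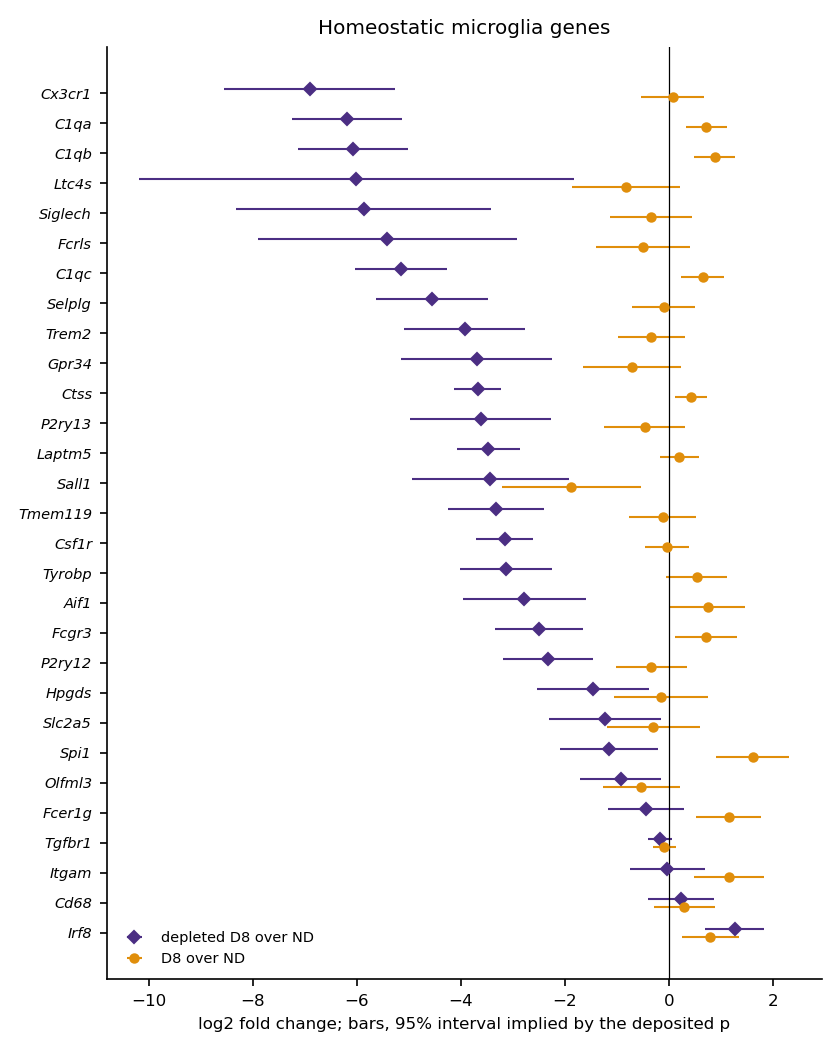
The x axis gives the deposited log2 fold change of 29 homeostatic microglia genes over ND, with bars for the 95% interval implied by the deposited p, in depleted D8 (purple diamonds) and D8 (orange circles). The depleted values run from -6.91 at Cx3cr1 to 1.26 at Irf8, and the median of the whole list in D8 is -0.03.

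Lists of related myeloid and lymphoid cells were mixed, beside 15.5% of all genes higher and 13% lower. Of 25 activated microglia genes 2 were higher and 4 lower (median -0.04). Clec7a, the beta-glucan receptor of activated microglia, fell by 3.10, and Lyz2, the macrophage lysozyme, by 1.33 in the authors' deposited table. Ch25h, which makes 25-hydroxycholesterol, rose by 4.56 to a depleted mean of 4.75, and its D8 value was 3.95 with a direct difference of 0.61 (95% interval -0.44 to 1.65) in the authors' deposited tables. Tlr2, a receptor for bacterial lipoproteins, rose by 2.51 in the authors' deposited table. Border macrophage and monocyte genes had 3 of 15 higher and 5 lower (median -0.57). Mrc1, the mannose receptor of perivascular macrophages, fell by 3.43 and F13a1 by 5.20, whereas Cbr2 rose by 3.36 and Plac8 by 2.56 in the authors' deposited table.

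Neutrophil genes had 5 of 13 members higher and 1 lower (median 1.88), against 15.5% of all genes higher. S100a9, a calgranulin, rose by 3.50 to a mean of 14.2, Ltf by 4.19 and Ngp by 5.03 in the authors' deposited table. Ltf and Ngp lay in the lowest 40 percent of level, under 1.98. Csf3r, the receptor for granulocyte colony-stimulating factor, which microglia also carry, fell by 1.94 in the authors' deposited table. In D8 against ND 2 of the 13 were higher (median 1.02), and the direct comparison called 2 higher and 1 lower. Lymphocyte genes had 1 of 15 higher and 1 lower (median -0.97). Ptprc, the common leukocyte antigen, fell by 2.04 and Cd8a, a T cell coreceptor, rose by 1.36 to a mean of only 0.154 in the authors' deposited table.

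Many chemokines, cytokines and adhesion molecules were higher than in ND with microglia depleted, and a subset was lower than in D8. Of 35 tested, 18 were higher and 2 lower in depleted D8 against ND, with a median of 1.61. D8 against ND had 21 higher and 1 lower and a median of 3.76. In the direct comparison 2 were higher and 7 lower, with a median of -0.72, against 5.85% and 4.90% of all genes.

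Csf3, the granulocyte colony-stimulating factor, had the largest rise of all genes that the naming rule admits, at 8.58 (implied SE 1.27) to a depleted mean of 3.73 in the authors' deposited table. Its D8 value was 7.81, and the direct difference of 0.77 had a 95% interval of -1.19 to 2.73 in the authors' deposited tables. Cxcl10, an interferon-induced attractant of T cells, rose by 6.69 in depleted D8 and by 8.30 in D8, where its mean was 31.3 in the authors' deposited tables. Its direct difference of -1.62 (95% interval -3.68 to 0.44) did not pass in the authors' deposited table. Ccl2, which attracts monocytes, rose by 5.82 and 6.91, and the direct difference was -1.09 (-2.81 to 0.62) in the authors' deposited tables. Cxcl1, which attracts neutrophils, rose by 5.93 and 6.65, with a direct difference of -0.72 (-2.50 to 1.05) in the authors' deposited tables. The intervals for these genes are wide and hold 0, and they also hold sizeable differences, upward as well as downward for Csf3.

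The 2 chemokines that were higher in the direct comparison were Ccl17 and Cxcl9, of which Cxcl9 was picked after its value was seen. Ccl17, a ligand of CCR4, had log2 values of 3.75 in depleted D8 and 1.48 in D8, and the direct difference was 2.26 (FDR p 0.000763) in the authors' deposited tables. Cxcl9, an attractant induced by interferon gamma, differed directly by 3.36 (FDR p 9.07e-05), at a depleted mean of only 0.349 in the authors' deposited tables.

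The 7 that were lower in the direct comparison were Ccl3, Ccl4, Ccl7, Ccl12, Lif, Cx3cl1 and Cxcl12, and all but Ccl12 and Cxcl12 were picked after their values were seen. Ccl12, a monocyte attractant, was 4.53 in D8 with a mean of 3.58 and -2.83 in depleted D8 (not called), and its direct difference of -7.35 (FDR p 6.43e-06) was the largest fall that the naming rule gives for that comparison in the authors' deposited tables. Ccl3, a chemokine that activated microglia make, was 5.17 in D8 and 0.96 (not called) in depleted D8, a direct difference of -4.21 (FDR p 0.000123) in the authors' deposited tables. Ccl4, its close relative, gave 4.46, 0.94 and -3.52 (FDR p 0.00222) in the same order in the authors' deposited tables. Ccl7 was still called in depleted D8, at 3.84 against 6.97 in D8, with a direct difference of -3.14 (FDR p 0.027) in the authors' deposited tables. Lif, an interleukin-6 family cytokine, was 5.07 in D8 and 1.42 (not called) in depleted D8, with a direct difference of -3.66 (FDR p 0.00124) in the authors' deposited tables. Cx3cl1, the neuronal ligand of the fractalkine receptor, fell by 0.47 and Cxcl12 by 1.67 in depleted D8 against ND in the authors' deposited table.

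Interferon-responsive genes were higher than in ND with microglia depleted. Of 17 interferon-inducible GTPases, which act against intracellular microbes, 15 were higher in depleted D8 against ND (median 2.81) and none lower, and D8 against ND had 14 higher (median 2.66). Of 33 other interferon-stimulated genes 25 were higher (median 1.72), and D8 had 23 higher and 1 lower (median 1.55). Without the lowest 40 percent of level the median of the latter list in depleted D8 was 1.07. In the direct comparison 3 of the 17 GTPases and 1 of the 33 others were higher and none was lower. Repopulated ND gave 0 of 17 and 1 lower of 33, with medians of 0.05 and 0.07.

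Interferon signalling ends at a promoter element, the interferon-stimulated response element. Its core was searched as GAAANNGAAA on both strands in windows from 250 bases before to 50 after each RefSeq gene start (GRCm38.p6, a build other than that of the deposited tables). It was found in 9 of the 10 GTPase genes that the RefSeq promoter table holds and in 13 of 23 interferon-stimulated genes, against 3.99% of 27025 genes in the table. Among MHC class I presentation genes 5 of 17 held it, and among chemokines, cytokines and adhesion genes 1 of 25. Windows before the start are printed 5′ to 3′ in the gene's direction, only for genes called in depleted D8 against ND. The GTPase, interferon-stimulated and MHC class I lists gave 2 genes each, those with the smallest p that hold a core there. The chemokine list gave the 1 gene that holds it. Capitals mark the core, or its reverse complement, with overlapping copies run together, and a match is a description of these letters only.
Tgtp1 (chr11:48992247-48992496, minus strand): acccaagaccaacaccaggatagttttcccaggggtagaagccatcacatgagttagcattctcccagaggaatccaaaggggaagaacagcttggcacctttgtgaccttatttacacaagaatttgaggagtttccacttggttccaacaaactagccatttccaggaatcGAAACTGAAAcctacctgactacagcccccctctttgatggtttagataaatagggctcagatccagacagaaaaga
Gbp3 (chr3:142559794-142560043, plus strand): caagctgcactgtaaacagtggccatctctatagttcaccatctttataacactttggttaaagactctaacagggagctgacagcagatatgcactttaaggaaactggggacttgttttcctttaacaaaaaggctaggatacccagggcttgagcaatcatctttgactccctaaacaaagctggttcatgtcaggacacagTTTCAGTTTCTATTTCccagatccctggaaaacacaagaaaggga
Bst2 (chr8:71537473-71537722, minus strand): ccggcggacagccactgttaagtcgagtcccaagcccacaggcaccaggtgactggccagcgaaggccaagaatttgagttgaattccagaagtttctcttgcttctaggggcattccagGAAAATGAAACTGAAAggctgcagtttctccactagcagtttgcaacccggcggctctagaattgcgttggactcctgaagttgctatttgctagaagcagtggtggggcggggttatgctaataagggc
Isg15 (chr4:156200819-156201068, minus strand): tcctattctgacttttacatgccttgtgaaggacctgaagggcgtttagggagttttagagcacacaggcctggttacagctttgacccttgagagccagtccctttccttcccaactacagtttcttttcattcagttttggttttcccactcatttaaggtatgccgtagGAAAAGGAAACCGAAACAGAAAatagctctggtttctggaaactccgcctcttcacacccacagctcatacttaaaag
H2-T23 (chr17:36032702-36032951, minus strand): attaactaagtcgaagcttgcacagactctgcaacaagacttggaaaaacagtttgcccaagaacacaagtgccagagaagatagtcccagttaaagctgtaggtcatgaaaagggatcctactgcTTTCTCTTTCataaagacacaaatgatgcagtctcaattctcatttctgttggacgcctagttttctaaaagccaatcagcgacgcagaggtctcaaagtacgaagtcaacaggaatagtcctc
B2m (chr2:122147437-122147686, plus strand): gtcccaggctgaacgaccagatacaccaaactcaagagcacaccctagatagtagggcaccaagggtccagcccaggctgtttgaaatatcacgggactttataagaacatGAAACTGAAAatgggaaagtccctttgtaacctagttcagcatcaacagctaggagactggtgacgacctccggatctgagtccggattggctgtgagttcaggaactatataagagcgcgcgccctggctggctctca
Cxcl10 (chr5:92348890-92349139, minus strand): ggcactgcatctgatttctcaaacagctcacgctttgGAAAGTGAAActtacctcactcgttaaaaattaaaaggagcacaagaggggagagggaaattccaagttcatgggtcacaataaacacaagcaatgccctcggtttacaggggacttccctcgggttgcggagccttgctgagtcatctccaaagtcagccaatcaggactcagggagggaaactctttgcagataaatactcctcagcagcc

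The core nearest to the start began 77 bases before it in Tgtp1, 39 in Gbp3, 124 in Bst2, 66 in Isg15, 124 in H2-T23, 139 in B2m and 213 in Cxcl10. Isg15 held 3 overlapping copies, and Gbp3 and Bst2 held 2 each. Only genes called in depleted D8 against ND could be printed, so it is no result that all 7 were higher there.

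Gbp3, a guanylate-binding protein, rose by 3.04 (implied SE 0.45, FDR p 2.44e-09) to a depleted mean of 6.74, and its D8 value was 2.72 with a direct difference of 0.31 (95% interval -0.54 to 1.17) in the authors' deposited tables. Gbp4 rose by 3.66 in the authors' deposited table. Tgtp1 rose by 4.48 in depleted D8 and 2.83 in D8, and was among the 3 GTPases higher in the direct comparison, at 1.64 (FDR p 0.0188) in the authors' deposited tables. The third was Tgtp2, picked after its value was seen, and as Tgtp1 and Tgtp2 are near-identical copies the split of reads between them is uncertain. Iigp1, another immunity-related GTPase, gave 4.14, 2.38 and 1.76 (FDR p 0.0177) in the same order in the authors' deposited tables.

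Ifitm3, a membrane protein that blocks entry of viruses, had the smallest p of the interferon-stimulated list. It rose by 2.84 (implied SE 0.30, FDR p 5.7e-18) to a depleted mean of 78.9, with 2.15 in D8 and a direct difference of 0.68 (95% interval 0.07 to 1.29, FDR p 0.146) in the authors' deposited tables. Isg15, a ubiquitin-like modifier, rose by 2.74 and by 2.32 in D8, with a direct difference of 0.42 (-0.45 to 1.28) in the authors' deposited tables. Bst2, which tethers virus particles to the cell, rose by 1.95 and by 1.41, and Zbp1, a sensor of nucleic acids, by 3.29 and 2.86 in the authors' deposited tables. The member higher in the direct comparison was Irf7, a regulator of interferon genes that was picked after its value was seen. Irf7 was lower in D8 (-0.73) and in repopulated ND (-0.96, FDR p 0.00883) and not called in depleted D8 (-0.11) in the authors' deposited tables, and its direct difference was 0.62 (FDR p 0.00732).

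MHC class I presentation rose alongside, with 17 of 19 members higher in depleted D8 against ND (median 1.31), 13 of 19 in D8 (median 1.09) and none called in the direct comparison (median 0.03). B2m, the light chain of every class I molecule, rose by 1.36 to a depleted mean of 57.4 and by 1.32 in D8, and its direct difference of 0.03 had a narrow 95% interval of -0.37 to 0.44 in the authors' deposited tables. H2-T23, the ligand of an inhibitory receptor of killer cells, rose by 1.95 and 1.39, with a direct difference of 0.55 (0.05 to 1.05, FDR p 0.15) in the authors' deposited tables. Psmb8, a subunit of the immunoproteasome, rose by 2.00 and 1.61, and Nlrc5, the transactivator of class I genes, by 3.12 and 2.27 in the authors' deposited tables. Several class I genes are near-copies of each other, so values of single H2 genes are uncertain. MHC class II genes, carried by few cells of the retina, had 2 of 9 lower and none higher (median -0.60), and H2-Aa fell by 2.40 from an ND mean of 0.908 in the authors' deposited table.

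**Figure D3:**
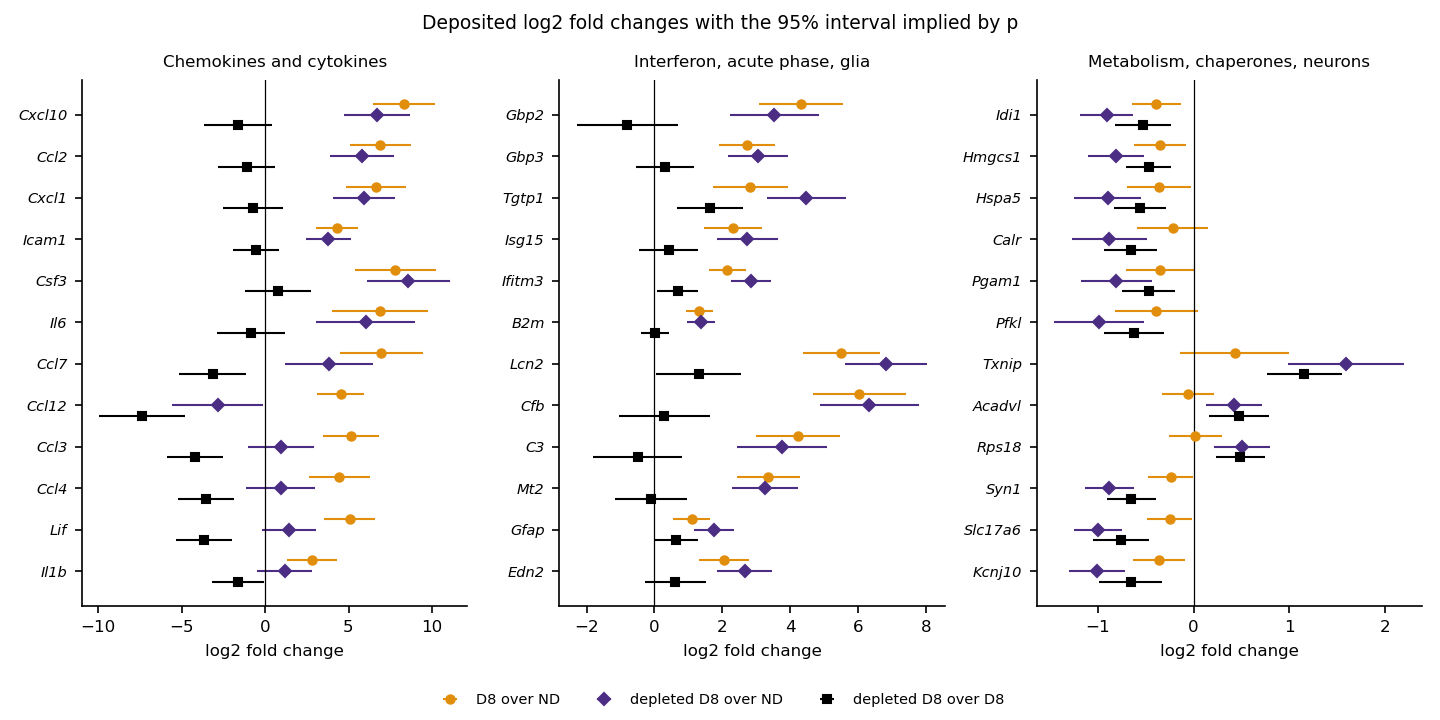
The 3 panels give the deposited log2 fold change on the x axis for D8 over ND (orange circles), depleted D8 over ND (purple diamonds) and depleted D8 over D8 (black squares), with 95% intervals implied by p, for 36 genes picked for display after their values were seen. Cxcl10, Gbp3, B2m and Cfb have direct differences whose intervals hold 0, while Ccl12, Ccl3, Ccl4 and Lif lie below 0 and Txnip above it.

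Complement genes moved in both directions. Of 20 genes tested, 6 were higher and 5 lower in depleted D8 against ND (median -0.11), whereas D8 against ND had 10 higher and none lower (median 0.88). With the lowest 40 percent of level left out, the median in depleted D8 against ND turned to 1.24. The direct comparison had 1 higher and 7 lower. C1qa and C1qb, higher in D8 at 0.72 and 0.88, were the deepest falls of the list in depleted D8 as given above. Cfb, the protease of the alternative pathway, rose by 6.33 (FDR p 1.01e-14) to a depleted mean of 10.0 and by 6.03 in D8, with a direct difference of 0.29 (95% interval -1.05 to 1.63) in the authors' deposited tables. C3, the central component and a gene picked after its value was seen, rose by 3.76 and 4.24, with a direct difference of -0.49 (-1.80 to 0.82) in the authors' deposited tables. C3ar1, the receptor for a cleavage product of C3 and likewise picked, fell by 2.56 in depleted D8 and rose by 1.97 in D8, and the direct difference was -4.54 (FDR p 8.03e-06) in the authors' deposited tables.

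Acute phase and metal-binding genes, which answer to interleukin-6 and to metal or oxidative stress, had 15 of 24 members higher and none lower (median 2.46), against 10 of 24 higher in D8 (median 1.62) and 3 of 23 higher in the direct comparison. Lcn2, which binds bacterial siderophores and marks reactive glia, rose by 6.82 (implied SE 0.62, FDR p 9.23e-25) to a depleted mean of 285 in the authors' deposited table. Its D8 value was 5.51, and the direct difference of 1.30 had a 95% interval of 0.05 to 2.56 and an FDR p of 0.179 in the authors' deposited tables. Saa3, an acute phase apolipoprotein, rose by 7.45 and 8.20, with a direct difference of -0.75 (-2.22 to 0.72) in the authors' deposited tables. Lrg1, a glycoprotein that promotes vessel growth, rose by 5.15 and 3.92, and Steap4, a metalloreductase, by 4.69 and 4.82 in the authors' deposited tables. Mt3, the neuronal metallothionein, was among the 3 higher in the direct comparison, at 1.30 in depleted D8, 0.52 in D8 and 0.77 directly (FDR p 0.00512) in the authors' deposited tables. The others were A2m, a protease inhibitor, and Fth1, ferritin heavy chain, picked after their values were seen, with direct differences of 1.10 and 0.38 in the authors' deposited table.

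Genes of the interleukin-6 family receptors and the STAT3 response had 12 of 18 members higher and none lower in depleted D8 against ND (median 1.32), and 9 of 18 higher in D8 (median 1.33). The direct comparison called none higher and 1 lower. Serpina3n, a serine protease inhibitor of reactive glia, rose by 3.79 to a depleted mean of 63.3 and by 2.63 in D8, with a direct difference of 1.16 (95% interval 0.17 to 2.14, FDR p 0.12) in the authors' deposited tables. Timp1, an inhibitor of matrix proteases, rose by 3.13 and 3.39, Cebpd, a transcription factor of the acute phase, by 3.01 and 3.31, and Bcl3, a partner of NF-kB, by 3.00 and 3.20 in the authors' deposited tables. The NF-kB components and feedback list had 7 of 22 higher and 2 lower (median 0.42), D8 had 9 higher and none lower (median 0.80), and the direct comparison called none of 22. Nfkbia, the inhibitor that NF-kB itself induces, rose by 1.32 and 1.20, with a direct difference of 0.11 (-0.40 to 0.61) in the authors' deposited tables. Birc3, an inhibitor of apoptosis, rose by 2.41 and 3.49, and Tnfaip3, a deubiquitinase that ends NF-kB signalling, fell by 0.67 from an ND mean of 62.5 in the authors' deposited tables.

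Reactive gliosis genes rose, and Muller glia genes moved in both directions. Of 30 reactive gliosis genes 19 were higher and none lower (median 1.57), against 18 higher in D8 (median 1.16), and the direct comparison had 2 higher and 1 lower. Gfap, the intermediate filament of astrocytes that stressed Muller glia also make, rose by 1.75 (FDR p 3.65e-07) to a depleted mean of 7.01 and by 1.10 in D8 in the authors' deposited tables. Its direct difference of 0.64 had a 95% interval of -0.01 to 1.29 and an FDR p of 0.206 in the authors' deposited table. Fkbp5, a chaperone that glucocorticoids induce, rose by 1.44 and 1.00 in the authors' deposited tables. The list shares Cxcl10, Lcn2 and several interferon or STAT3 genes with the lists above, so its count is not separate from theirs. Edn2, an endothelin of injured photoreceptors that was picked after its value was seen, rose by 2.66 and 2.05 in the authors' deposited tables.

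Muller glia genes had 3 of 18 higher and 6 lower (median -0.21), while D8 had 1 lower (median -0.11) and the direct comparison 2 higher and 5 lower. The shares of all genes lower were 13%, 0.583% and 4.90% in the same order, and 15.5% were higher in depleted D8 against ND. Kcnj10, the potassium channel of Muller glia, fell by 1.01 (FDR p 3.31e-09) from an ND mean of 8.86, with -0.36 in D8 and a direct difference of -0.66 (FDR p 0.005) in the authors' deposited tables. Aqp4, the water channel at their endfeet, fell by 0.73, with a direct difference of -0.42 (FDR p 0.0296) in the authors' deposited tables. Abca8a, a transporter, fell by 0.95 and Spc25, a kinetochore gene used as a Muller marker, by 1.41 in the authors' deposited table. The 3 that rose, picked after their values were seen, were Car14, a carbonic anhydrase, at 0.67, Crym at 0.38 and Prdx6, a peroxiredoxin, at 0.36 in the authors' deposited table. The astrocyte list had 2 of 10 higher and 2 lower (median -0.02). Aldh1l1, the folate enzyme that marks astrocytes, rose by 1.04 and Pdgfra, which marks their precursors, fell by 0.80 in the authors' deposited table.

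**Figure D4:**
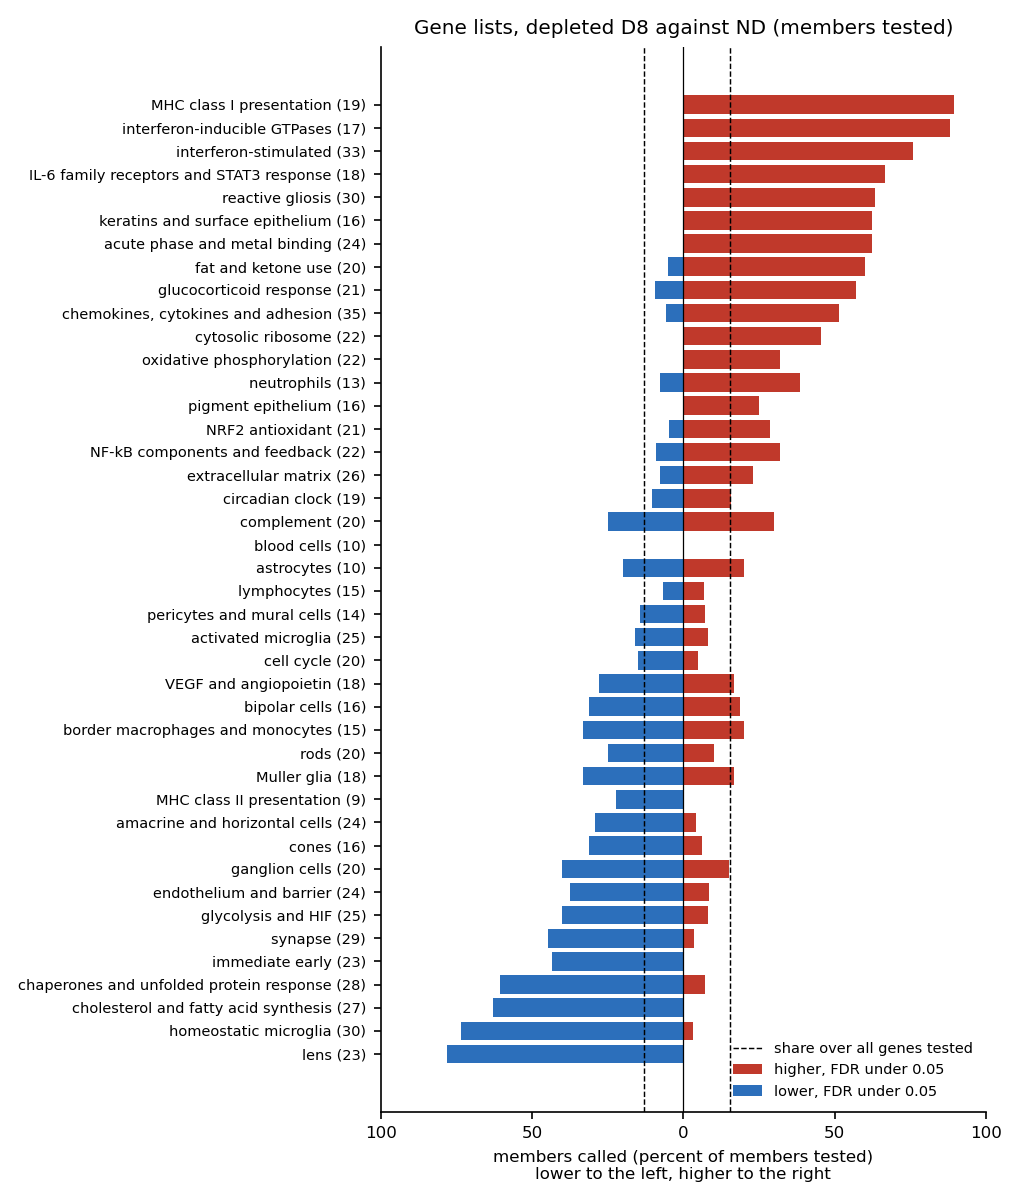
Bars give, for each of 42 gene lists, the percent of tested members called higher (red, right) and lower (blue, left) in depleted D8 against ND, with the number tested in brackets and dashed lines at 15.5% and 13%, the shares over all genes. MHC class I, interferon and STAT3 lists reach farthest to the right, and lens, homeostatic microglia, cholesterol synthesis and chaperone lists farthest to the left.

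Vessel genes were lower in depleted D8 in part. Of 24 endothelium and barrier genes 9 were lower and 2 higher (median -0.28), whereas D8 had 1 higher and none lower (median -0.11), and the direct comparison had 4 lower. Of all genes 13% were lower in depleted D8 against ND, 0.583% in D8 against ND and 4.90% directly. Kdr, the main receptor for vascular endothelial growth factor, fell by 1.05 (FDR p 4.07e-09) from an ND mean of 19.3, with -0.42 in D8 and a direct difference of -0.64 (FDR p 0.000136) in the authors' deposited tables. Abcb1a, the drug efflux pump of the barrier, fell by 1.67, with a direct difference of -1.26 (FDR p 0.000833) in the authors' deposited tables. Cav1, the coat protein of caveolae, fell by 0.72, with a direct difference of -0.61 (FDR p 0.00236) in the authors' deposited tables. Ly6c1, a surface antigen of capillaries that interferon raises, went up by 1.98 and by 1.39 in D8 in the authors' deposited tables. The pericyte and mural cell list had 1 of 14 higher and 2 lower (median -0.07), with Rgs5, a pericyte regulator of G proteins, at -0.51 and Mcam at 0.71 in the authors' deposited table.

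The VEGF and angiopoietin list had 3 of 18 higher and 5 lower (median 0.00), against 15.5% and 13% of all genes. Vegfa, the chief growth factor of retinal vessels, fell by 0.56 (FDR p 0.00105) from an ND mean of 50.8, with -0.17 in D8 and a direct difference of -0.40 (FDR p 0.0482) in the authors' deposited tables. Pgf, its relative placental growth factor, rose by 2.20 and by 2.26 in D8, with a direct difference of -0.07 (95% interval -1.15 to 1.01) in the authors' deposited tables. Angptl4, an inhibitor of lipoprotein lipase, rose by 3.03 and 1.88 and Apln, the ligand apelin of tip cells, fell by 1.93 and 1.20 in the authors' deposited tables. Extracellular matrix genes had 6 of 26 higher and 2 lower (median -0.07), with Col6a1 at 0.93, Mmp3 at 7.01 with a depleted mean of only 0.281, Timp2 at -0.49 and Nid1 at -3.54 in the authors' deposited table.

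Several neuronal lists had more members lower than higher, by small amounts. Over all genes 13% were lower and 15.5% higher in depleted D8 against ND. The shares lower were 0.583% in D8 against ND and 4.90% in the direct comparison. Ganglion cell genes had 3 of 20 higher and 8 lower (median -0.30), and D8 against ND called none of the 20 (median -0.07), while the direct comparison had 4 lower. Slc17a6, the glutamate transporter of ganglion cell vesicles, fell by 1.00 (implied SE 0.13, FDR p 8.01e-12) from an ND mean of 6.53, with -0.25 in D8 and a direct difference of -0.76 (FDR p 7.22e-05) in the authors' deposited tables. Pou4f1, a transcription factor of ganglion cells, fell by 0.77, Nefl, the neurofilament light chain, by 0.60, and Chrna6, a nicotinic receptor subunit, by 0.62 in the authors' deposited table. Synapse genes had 13 of 29 lower and 1 higher (median -0.33), none called in D8 (median -0.10) and 6 lower in the direct comparison. Syn1, which tethers synaptic vesicles, fell by 0.88, Bsn, a scaffold of the ribbon and active zone, by 0.76 and Rims1, of the same zone, by 0.70 in the authors' deposited table.

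Amacrine and horizontal cell genes had 7 of 24 lower and 1 higher (median -0.13), none called in D8 and 5 lower in the direct comparison. For this list and those that follow, 13% of all genes were lower and 15.5% higher in depleted D8 against ND. Gad1 and Gad2, which make GABA, fell by 0.43 and 0.57, Slc32a1, which loads it into vesicles, by 0.43, and Tfap2b by 0.44 in the authors' deposited table. Rod genes had 2 of 20 higher and 5 lower (median -0.32). Rcvrn, the calcium sensor recoverin, fell by 1.39 from an ND mean of 941, Gnat1 fell by 0.63, and Guca1a and Sag, a guanylate cyclase activator and rod arrestin, rose by 0.93 and 0.51 in the authors' deposited table. Cone genes had 1 of 16 higher and 5 lower (median -0.17), with Opn1sw, the short-wavelength opsin, at -0.69 and Pde6h at -0.55 in the authors' deposited table. Arr3, cone arrestin and a gene picked after its value was seen, rose by 0.88 in D8 from an ND mean of 81.1 to 152, was not called in depleted D8 (-0.11), and differed directly by -0.99 (FDR p 3.68e-05) in the authors' deposited tables. Bipolar cell genes had 3 of 16 higher and 5 lower (median 0.05), with Trpm1, the channel of ON bipolar cells, at 0.79 and Nyx, which anchors its complex, at -0.96 in the authors' deposited table.

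Sterol synthesis genes were lower and fat use genes higher in depleted D8 against ND. Of 27 genes of cholesterol and fatty acid synthesis 17 were lower and none higher (median -0.49), D8 called none (median -0.22) and the direct comparison had 8 lower. The shares of all genes lower were 13%, 0.583% and 4.90% in the same order. Idi1, an isomerase of the sterol pathway, fell by 0.91 (FDR p 4.83e-09) from an ND mean of 15.5, with a direct difference of -0.53 (FDR p 0.00887) in the authors' deposited tables. Hmgcs1, the synthase at the entry of the pathway, fell by 0.81, Stard4, a sterol carrier, by 0.91 and Cyp51, a sterol demethylase, by 0.70 in the authors' deposited table. Fat and ketone use went the other way, with 12 of 20 higher and 1 lower (median 0.49), 3 higher and 1 lower in D8 (median 0.02) and 8 higher in the direct comparison. Acadm, which oxidizes medium-chain fatty acids, rose by 1.12 to a depleted mean of 62.9 and by 0.77 in D8, with a direct difference of 0.34 (95% interval 0.08 to 0.60, FDR p 0.0718) in the authors' deposited tables. Plin4, a coat protein of lipid droplets, rose by 2.21 and Acot1, a thioesterase, by 1.42, with direct differences of 1.22 and 1.01, both called, in the authors' deposited tables.

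Glycolysis and HIF target genes had 10 of 25 lower and 2 higher (median -0.35), none called in D8 (median -0.21), and 5 lower and 1 higher in the direct comparison. Beside these stand 13%, 0.583% and 4.90% of all genes lower in the same order. Pgam1, a glycolytic mutase, fell by 0.81 from an ND mean of 465, Pdk1, which holds pyruvate back from mitochondria, by 0.86 and Bnip3, a mitophagy receptor, by 0.82 in the authors' deposited table. Txnip, an inhibitor of glucose uptake that rises with glucose, went up by 1.60 in depleted D8 and was 0.43 (not called) in D8, with a direct difference of 1.16 (FDR p 1.44e-06) in the authors' deposited tables. Chaperones and the unfolded protein response had 17 of 28 lower and 2 higher (median -0.55), against 4 lower and 1 higher in D8 (median -0.23) and 7 lower in the direct comparison. Hsp90b1, the Hsp90 of the endoplasmic reticulum, fell by 0.92 from an ND mean of 131, with -0.29 in D8 and a direct difference of -0.64 (FDR p 0.000521) in the authors' deposited tables. Hsph1 fell by 0.95, and Hsp90aa1 and Dnajb1, cytosolic heat shock proteins, fell by 0.85 and 0.88 and were also lower in D8 at -0.69 and -0.61 in the authors' deposited tables.

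Ribosomal protein genes had 10 of 22 higher and none lower (median 0.34), none called in D8 (median -0.02) and 8 higher in the direct comparison. Of all genes 15.5%, 2.33% and 5.85% were higher in the same order. Rps18 rose by 0.51 to a depleted mean of 364, Rps12 by 0.45 and Rpl30 by 0.40 in the authors' deposited table. Oxidative phosphorylation genes had 7 of 22 higher and none lower (median 0.22), and neither D8 nor the direct comparison called any. Ndufv1, a subunit of complex I, rose by 0.34, Cox6c by 0.35 and mt-Nd1, of the mitochondrial genome, by 0.48 in the authors' deposited table. Over genes with a level above 1, the median log2 of depleted D8 against ND ran from 0.07 in the fifth with the shortest transcripts to -0.16 in that with the longest, and from -0.10 at the lowest to 0.13 at the highest GC content. In D8 against ND the same medians ran from 0.00 to -0.03 by length. The direct comparison carried a similar trend to depleted D8 against ND, from 0.05 to -0.13 by length and from -0.10 to 0.09 by GC content. The trend was removed only from depleted D8 against ND, a setting chosen after the data were seen. There the ribosome median was then 0.20, the synapse median -0.35 and the cholesterol median -0.52. Direct medians keep the trend, and the part of length and GC in these results was not tested further.

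Immediate early genes, which neurons and glia switch on within minutes of a stimulus, had 10 of 23 lower and none higher (median -0.53). D8 had 3 higher and 6 lower, and repopulated ND 6 lower (median -0.55), all against the same ND samples, and the direct comparison had 3 lower. The shares of all genes lower were 13%, 0.583%, 0.0714% and 4.90% in the same order. Nr4a3, an orphan nuclear receptor, fell by 3.12 from an ND mean of 1.74, with -2.73 in D8 and -1.60 in repopulated ND in the authors' deposited tables. Egr4 fell by 2.92, Nr4a2 by 0.99 and Dusp1, a phosphatase of stress kinases, by 0.74 in the authors' deposited table. Fosl1, a Fos relative picked after its value was seen, was 5.30 in D8 and 2.24 (not called) in depleted D8, with a direct difference of -3.07 (FDR p 0.0205) in the authors' deposited tables. Glucocorticoid response genes had 12 of 21 higher and 2 lower (median 1.17), 8 higher and 1 lower in D8 (median 0.14), and 4 higher in the direct comparison. Of all genes 15.5%, 2.33% and 5.85% were higher in the same order. The median of this list in depleted D8 was 0.70 without the lowest 40 percent of level, and the list shares Lcn2, its largest rise, with the acute phase list. Hif3a, one of the 4 higher in the direct comparison, rose by 1.63, with 0.69 in D8 and 0.93 directly (FDR p 0.00936) in the authors' deposited tables. Clock genes had 3 of 19 higher and 2 lower (median 0.01), near the 15.5% higher and 13% lower of all genes. Single values were 0.73 for Cry1, a clock repressor, 0.94 for Ciart, -0.45 for Nr1d1 and -0.44 for Hlf in the authors' deposited table.

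NRF2 antioxidant genes had 6 of 21 higher and 1 lower (median 0.07), against 15.5% and 13% of all genes, among them Slc7a11, the cystine carrier, at 1.98 with 2.41 in D8 in the authors' deposited tables. Gsta4, a glutathione transferase, rose by 0.54, Sod2 by 0.51, and G6pdx fell by 0.27 in the authors' deposited table. Cell cycle genes had 1 of 20 higher and 3 lower (median -0.26), and the member higher was Cdkn1a, the inhibitor p21, at 2.51 with 1.72 in D8 in the authors' deposited tables. Ccnd1 fell by 0.63, Pcna by 0.45 and Cenpf by 1.37 in the authors' deposited table.

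The plot of list medians sets the 3 comparisons side by side. The direct median was 0.03 for MHC class I presentation, 0.12 for interferon-stimulated genes, 0.25 for the GTPases, -0.20 for the STAT3 list and -0.23 for reactive gliosis. It was -3.20 for homeostatic microglia, -0.72 for chemokines, -0.30 for complement and -2.65 for the lens. On the other side it was 1.79 for keratins, 0.84 for neutrophils, 0.75 for pigment epithelium, 0.63 for acute phase genes and 0.40 for fat and ketone use.

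**Figure D5:**
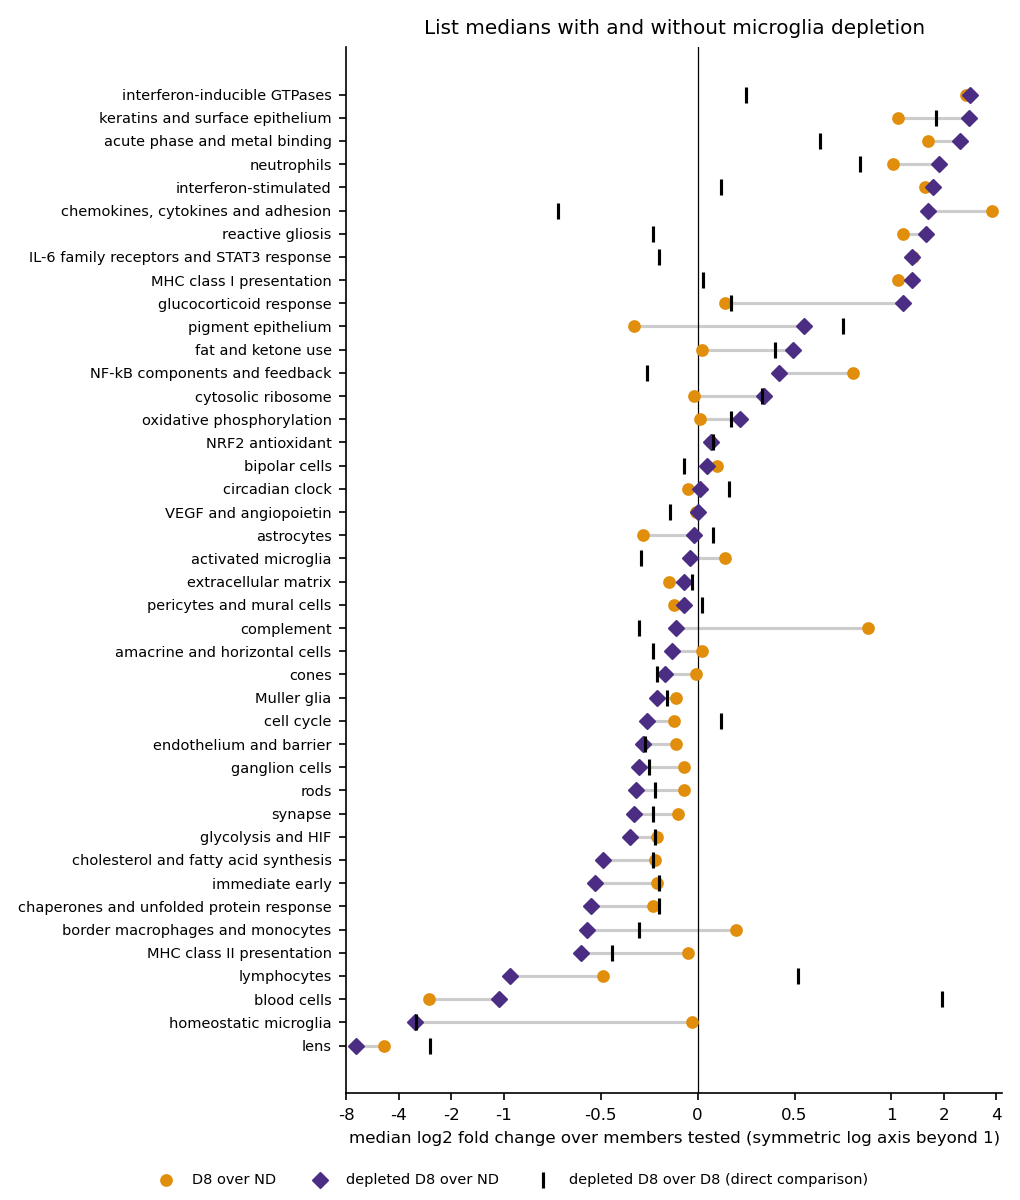
Each row is 1 of 42 gene lists, and the x axis (linear within 1 of 0 and logarithmic beyond) gives the median deposited log2 fold change of its tested members in D8 over ND (circles), depleted D8 over ND (diamonds) and depleted D8 over D8 (ticks). Diamond and circle stand at 1.32 and 1.33 for the STAT3 list, at 1.72 and 1.55 for interferon-stimulated genes and at -3.24 and -0.03 for homeostatic microglia.

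The naming rule also took the largest changes of the direct comparison. Krt16, a keratin of stressed epithelium, was 7.31 against ND and 5.59 against D8, and Krt6a 4.29 and 2.93 in the authors' deposited tables. H1f8, an oocyte linker histone, had means of 0.398 in ND and 6.99 in depleted D8 and log2 values of 4.07 against ND and 4.30 against D8 in the authors' deposited tables. Fabp9, a fatty acid binding protein of testis, was 4.49 and 3.90, and Olig3, a factor of neural progenitors, 2.22 and 2.74 in the authors' deposited tables. Kif4, a chromosome kinesin, rose by 4.13 (FDR p 7.58e-18) to a depleted mean of 12.6 and by 2.99 against D8 in the authors' deposited tables, while 1 of 20 members of the cell cycle list was higher. The falls were Ccl12, C1qa, C1qb, C1qc, Ctss and the lens gene Crygc, at -4.44 in the authors' deposited table.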

How the data were processed

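Stranded poly(A) RNA libraries of retina were sequenced as paired reads of 100 bp, per the labels' protocols. Base calls were converted with bcl2fastq and the genome was GRCm39, per the submitters' processing notes. Which aligner, counter, scaling and test were used is not given in the sources used here. Of 8 comparison tables that the authors deposited, 7 were read. In them the log2 fold change sets the first named group over the second, and 2 to its power equals the deposited linear fold change. The signal level is a group mean, that of the higher group, per the file headers, and its unit is unknown. Each p-value and FDR p-value was taken as deposited, and the FDR equals a Benjamini-Hochberg adjustment within 3.39e-06 in depleted D8 against ND, where 911 genes have a p but no FDR and were not counted as tested. No model was refitted, depth per sample is unknown, and the median implied standard error was 0.168 log2 in depleted D8 against ND, 0.153 in D8 against ND and 0.163 in the direct comparison.

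The implied standard error is the log2 fold change over the normal quantile of p, and 95% intervals follow from it. A group mean was read from the level column where tables that share a group repeat it. The 42 gene lists, the members and the rule for named genes were chosen with earlier results of these data known. The rule takes the 12 largest rises and falls called in depleted D8 against ND and the 6 in the direct comparison, within the upper 60 percent of level and without 5117 predicted names. For each list with a call it also takes the 4 members of smallest p, and it includes the homeostatic microglia list, Gfap and Vegfa. Lists are described by counts and medians, with no test. Length and GC content came from GENCODE transcripts by Ensembl number for 99.8% of genes, and promoters from RefSeq. Alternatives were FDR thresholds of 0.01 and 0.10, a minimum size of 1 on the log2 scale, the lowest 40 percent of level left out, predicted names left out, centring on the median of all genes and, chosen after seeing the data, subtraction of a cubic trend on length and GC content. A few genes that the rule takes are not reported here. The steps were tested on simulated data. Python 3.11.15 with numpy, pandas and scipy was used.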

Additional observations from a re-analysis of the deposited data

Results flagged for a closer look

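C1qa, C1qb, C3ar1 and Cd52 were called higher in D8 against ND and lower in depleted D8 against ND, and the direct comparison of depleted D8 with D8 was called for each. In the authors' deposited table the direct log2 difference was -6.92 for C1qa, -6.97 for C1qb, -4.54 for C3ar1 and -2.54 for Cd52, a surface antigen of leukocytes. All 4 are made by microglia or other myeloid cells. C1qa and C1qb belong to the homeostatic microglia list, so they are counted within its 22 of 30 members lower in the same direct comparison. Of all genes 4.90% were lower there. The cause of these changes was not tested. These genes were sought among all list members after the values were seen.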

How the results depend on the processing

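At an FDR threshold of 0.01, depleted D8 against ND called 3354 genes, 1486 of them lower, the direct comparison 739 (428 higher, 311 lower), D8 against ND 310 (255 higher, 55 lower) and repopulated ND against ND 8 higher. At 0.10 the direct comparison had 1271 lower genes and D8 against ND 161 lower. With an absolute log2 of at least 1, the counts were 1374 (1037 higher, 337 lower), 551 (381 and 170), 338 (53 lower) and 13 (7 and 6) in the same order. Without the lowest 40 percent of level, D8 against ND called 282 genes, 207 of them higher. In that setting the complement median turned from -0.11 to 1.24, and the medians of homeostatic microglia (-4.42), interferon-stimulated genes (1.07) and the glucocorticoid response (0.70) kept their sign. The cause was not tested. Of 197 genes taken by the naming rule, 15 were no longer called at 0.01. Without the lowest 40 percent of level 59 of the 197 were not tested, Cx3cr1, Csf1r and P2ry12 among them. The microglia median of -4.42 therefore rests only on the members that stayed. Centring and the length and GC trend, the latter chosen after the data were seen, changed no list median's sign where it lay more than 0.1 from 0, and the ribosome median went from 0.34 to 0.20 with the trend removed. No paired analysis was possible because the tables hold comparisons and no values per sample, and for the same reason no replicate could be left out. Depth is unknown. Every comparison with ND rests on the same 6 samples, and lens and keratin genes differed between the groups. Non-diabetic retina examined while depleted is not among the 7 groups of the series, so depletion and diabetes cannot be told apart in depleted D8 against ND.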
